A study of Mus musculus with 40 samples.

Results

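Liver was compared with gonadal fat (gWAT, the white adipose depot that lies along the gonads) in the control arm of a mouse study of paternal nicotine exposure. The members are the 19 control libraries of 39 in the 4 deposited tables: 5 of liver and 5 of gWAT from daughters, and 5 of liver and 4 of gWAT from sons. They were chosen by their headers (DMSO) and their treatment label (Control), and no measured value entered the choice. All were C57BL/6J, an inbred strain, and all carried the same batch label. The headers name DMSO, a solvent, for the control arm that the nicotine arm was set against, and the offspring themselves carry no label of a treatment of their own. The labels list 40 samples, and 1 of the 5 labelled control samples of the sons' gWAT was not analysed here, so the 4 libraries of that group are called by their column numbers. They give no age, litter or father, and do not say whether a liver and a gWAT sample came from the same mouse, so p-values measure the spread between these libraries, which may in part be technical. The libraries were 3′-tag libraries of polyA RNA, in which each transcript gives about one tag whatever its length, so levels of different genes were not divided by length.

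Liver and white fat divide the handling of fuel between them. Hepatocytes make most plasma proteins, bile acids and urea, release glucose, and turn fatty acids into ketone bodies for other tissues. White adipocytes store triglyceride in one large droplet, release fatty acids under catecholamine control, and secrete hormones such as adiponectin. Many steps that both tissues carry out are encoded by separate genes in each, among them the glucose transporters GLUT2 and GLUT4, the glycogen synthases and the fatty acid-binding proteins.

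Each table was normalized alone by the authors, so whole reads were recovered from each and rescaled. Levels are in CPM (reads scaled to a total of 1000000) over the genes present in both tables of a sex, which were 13745 genes in daughters and 13766 in sons. Differences are liver minus gWAT on the log2(CPM + 1) scale, so positive values are higher in liver and the changes of low genes are understated. A gene was called when limma's test against a 2-fold difference gave a Benjamini-Hochberg adjusted p below 0.05. Such a call is written below as called, higher or lower, and its adjusted p is given where it matters.

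The libraries held 1726898 to 2152027 reads each, and the tissue labels held in every one of them. The summed level of the 20 hepatocyte markers was between 47380 and 56014 CPM in the liver libraries and between 456 and 1265 CPM in gWAT. The summed level of the 25 adipocyte markers was between 26537 and 88792 CPM in gWAT and between 1522 and 3783 CPM in liver. Xist, the X-inactivation RNA, was at 805 CPM or more in each daughters' library and at 6.72 CPM or less in each sons' library. Some libraries carried markers of other tissues. Skeletal muscle markers summed to 22013 CPM in 1 daughters' gWAT library (number 2) and to 145 CPM in 1 daughters' liver library (number 4). Epididymal markers summed to 18911 CPM in 1 sons' gWAT library and to between 299 and 2185 CPM in the other three. Without these libraries and 1 sons' liver library (number 3) that was low for several abundant genes, 2983 genes were called in daughters and 3457 in sons, against 3101 and 3363 with them.

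The promoters of 2 genes that carry the comparison are shown first, from the RefSeq table of GRCm38.p6: the 250 bases before the start site of Alb, which encodes serum albumin (chr5:90460620-90460869, plus strand), and of Adipoq, which encodes adiponectin (chr16:23146286-23146535, plus strand). Capitals mark CCAAT boxes on either strand in both and, in Alb, the sequence GTTAATNAT, the site of the hepatocyte factor HNF1, at bases -32 to -24. Under them stand 30-base windows of the same kind, with the HNF1 site in capitals, from Fga (fibrinogen alpha chain, chr3:83026097-83026126), Gc (vitamin D-binding protein, chr5:89457931-89457960), Hc (complement C5, chr2:35061470-35061499) and Slco1b2 (a hepatocyte anion transporter, chr6:141629442-141629471), whose sites begin 46, 52, 77 and 66 bases before the start. Fga and Slco1b2 lie on the plus strand, and Gc and Hc on the minus strand.
Alb promoter: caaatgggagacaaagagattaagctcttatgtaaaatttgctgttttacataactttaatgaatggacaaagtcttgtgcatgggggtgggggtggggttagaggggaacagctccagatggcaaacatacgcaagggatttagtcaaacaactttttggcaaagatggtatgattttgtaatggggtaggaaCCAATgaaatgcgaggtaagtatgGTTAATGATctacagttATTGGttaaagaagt
Adipoq promoter: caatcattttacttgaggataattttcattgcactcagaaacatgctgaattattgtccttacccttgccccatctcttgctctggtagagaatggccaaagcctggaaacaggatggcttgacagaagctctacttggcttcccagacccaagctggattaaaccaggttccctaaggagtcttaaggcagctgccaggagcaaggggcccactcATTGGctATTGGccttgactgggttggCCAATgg
Fga window: gccaagggtgATGATTAACctcctgccggt
Gc window: cagtgacaaaGTTAATGATtaaaacctccc
Hc window: tctgacattaATAATTAACcggagaactaa
Slco1b2 window: tgaagagataGTTAATCATcactgaactga

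Alb was at 21111, 24421, 22558, 23098 and 23244 CPM in the daughters' livers and at 103, 109, 110, 82.6 and 65.0 CPM in their gWAT, and Adipoq at 0, 4.89, 0.985, 4.46 and 0.471 CPM against 4915, 2358, 4685, 4358 and 3964 CPM. No library of one tissue came near those of the other for either gene. The promoters of genes at least 16-fold apart in both sexes were then set beside those of all genes tested in both sexes, these genes included, as a description. Promoters were in the RefSeq table for 196 of 260 such genes higher in liver (230 promoters), 274 of 374 higher in gWAT (349 promoters) and 7666 of all 10043 genes tested in both sexes (9874 promoters). GTTAATNAT on either strand was in 5.22% of the liver promoters, 0.573% of the gWAT promoters and 0.446% of all. It was found in 12 liver genes, in 8 of them within 80 bases of the start. Its shorter core GTTAAT, which every such site holds, was in 17.4%, 3.15% and 4.18%. The TATA box TATAAA was in 20.4%, 12.0% and 6.82%, and the GC box GGGCGG in 19.6%, 49.6% and 58.0%, so that TATA boxes were more frequent and GC boxes less frequent in the liver promoters. CCAAT was in 40.4%, 30.9% and 34.5%. The forkhead sequence TGTTTAC was in 6.09%, 1.43% and 2.17%, the HNF4 sequence CAAAGTCCA in 2.61%, 0.287% and 0.304%, and the direct repeat CAAAGGTCA in 1.74%, 0.573% and 0.365%. The C/EBP palindrome TTGCGCAA was in 0% of the liver promoters, 0.287% of the gWAT promoters and 0.314% of all. The 3 sets also differed in base composition, with a median GC content of 49.2%, 58.4% and 60.0%, and the part of composition in these shares was not tested.

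In daughters 3101 of 10529 genes tested were called (29.5%), of which 855 were higher in liver (8.12% of those tested) and 2246 higher in gWAT (21.3%). In sons 3363 of 10631 were called (31.6%), of which 840 were higher in liver (7.9%) and 2523 in gWAT (23.7%). Any difference at all, without the 2-fold bound, was called for 7436 genes in daughters (70.6%) and 7602 in sons (71.5%). The excess of gWAT calls depended on the scaling. Under CPM the median gene stood at -0.60 in daughters and -0.73 in sons on the log2 scale, that is, lower in liver, and beside this a few genes took a larger share of the liver reads, as given in the next paragraph. With TMM factors, which set that median near 0 (-0.02 in both sexes), 1260 genes were higher in liver and 1322 in gWAT in daughters, and 1337 and 1342 in sons. Under TMM no gene was called in the opposite direction, and each of the 855 and 840 liver calls stayed. Counts under TMM are therefore given beside most of the gene lists whose counts they change, and a list median is read against the median gene of the same scaling. In these bulk samples, fewer cells of a type and less RNA per cell cannot be told apart.

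The 10 most abundant genes of a library took 31.4% ± 0.550 (SD, n = 5) of its reads in the daughters' liver and 23.1% ± 3.33 (n = 5) in their gWAT, with no overlap (two-sided exact permutation test, p = 0.00794). In sons the shares were 26.8% ± 0.587 (n = 5) and 17.1% ± 2.64 (n = 4, two-sided exact permutation p = 0.0159). These are the smallest p-values the group sizes allow. Reads of liver and gWAT alike were led by the mitochondrial ribosomal RNAs mt-Rnr2 and mt-Rnr1. Behind them stood Alb, Ahsg (the plasma protein fetuin-A), Trf (transferrin) and Ttr (transthyretin) in the daughters' liver, and Cfd (adipsin), Fabp4 (the adipocyte fatty acid-binding protein), Lpl (lipoprotein lipase) and Scd1 (stearoyl-CoA desaturase) in their gWAT, beside transcripts of the mitochondrial genome. In liver 95.6 ± 5.03 genes (SD, n = 5) held 50% of the reads in daughters and 116.4 ± 12.8 in sons. In gWAT it took 319 ± 90.5 genes in daughters and 444.0 ± 48.6 (n = 4) in sons. Scaled to 1000000 reads, 13263 ± 96.4 genes were detected in the daughters' liver against 15361 ± 220 in gWAT, and 12872 ± 82.6 against 16069 ± 383 in sons, again with no overlap.

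The genes furthest apart were secreted liver proteins and P450 enzymes on one side and adipokines and lipid droplet proteins on the other. In daughters the 10 largest liver excesses (log2 difference ± SE) were those of Cyp2c69 (9.56 ± 0.30), Cyp4a10 (9.20 ± 0.28), Ahsg (9.16 ± 0.27), Apob (9.13 ± 0.36), Apoa1 (8.78 ± 0.29), Hamp2 (8.75 ± 0.35), Gc (8.71 ± 0.17), Fgg (8.67 ± 0.37), Serpina1d (8.66 ± 0.23) and Slco1b2 (8.65 ± 0.35). They encode 2 P450 enzymes, fetuin-A, apolipoproteins B and A-I, a hepcidin, the vitamin D carrier, fibrinogen gamma, an antitrypsin and an anion transporter. In sons the 10 largest were Cyp2d9 (7.66), Serpina1e (7.65), C8a (7.55), Mup21 (7.49), Mup20 (7.44), Cyp7a1 (7.43), Mup3 (7.39), Slco1a1 (7.39), C8b (7.34) and Ces3a (7.32), of which Mup20, Mup21, Mup3, Cyp2d9, Slco1a1 and Serpina1e are known as genes of male liver. In gWAT 7 genes were among the 10 largest in both sexes: Cfd (-11.23 ± 0.46 in daughters and -9.51 ± 0.64 in sons), Adipoq (-10.63 ± 0.41 and -9.27 ± 0.71), Fabp4 (-9.94 ± 0.30 and -8.61 ± 0.44), Clec3b (tetranectin, -9.76 ± 0.19 and -8.71 ± 0.59), Nnat (neuronatin, -9.08 ± 0.34 and -10.05 ± 0.66), Retnla (-8.72 ± 0.25 and -8.67 ± 0.51) and Plin4, the droplet coat protein S3-12 (-8.45 ± 0.28 and -8.57 ± 0.45). The other gWAT genes included Cidec and Retn in daughters and were Aoc3, Rgcc and Plin1 in sons. The adjusted p of each gene named here was 2.8e-07 or less in its sex.

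**Figure D1:**
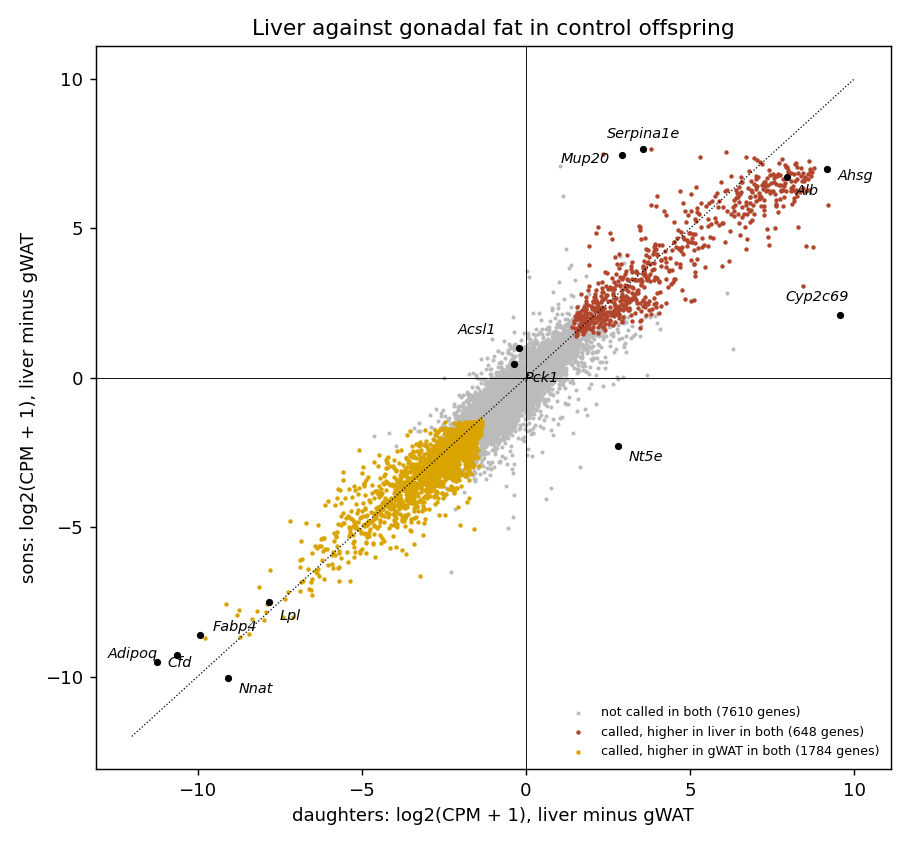
Log2 difference, liver minus gWAT, of each gene tested in both sexes, with daughters on the horizontal axis and sons on the vertical axis; colours mark genes called higher in liver in both sexes (648 genes), higher in gWAT in both sexes (1784 genes) and all others, with Nt5e, called in opposite directions, set apart. Genes lie along the diagonal in both arms, and the most liver-biased genes reach further out in daughters than in sons.

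Genes of plasma proteins were nearly all higher in liver, whereas coagulation genes were called in both directions. Of the 31 plasma protein genes tested in daughters, 29 were higher in liver and none in gWAT, with a median difference of 7.62, and in sons 30 of 32, with a median of 6.00; with TMM it was 31 in each sex. The exceptions in daughters were Igf1, the growth factor, and Orm1, an acute phase protein, and in sons Igf1 and Hp. Serpina1a, an antitrypsin, averaged 1439 ± 79.1 CPM (SD, n = 5) in the daughters' liver and 4.95 ± 3.04 CPM in gWAT, and Apoh, which binds phospholipids in plasma, 1814 and 5.07 CPM. Of 24 coagulation and fibrinolysis genes tested in daughters, 16 were higher in liver and 7 in gWAT (5 with TMM), and of 28 in sons 20 and 7 (5 with TMM). Of all genes tested, 8.12% were higher in liver and 21.3% in gWAT in daughters, and 7.9% and 23.7% in sons. The gWAT counts are not far from these shares, so nothing is read from them. Liver held the circulating zymogens and inhibitors, such as Fga (7.99 ± 0.39 in daughters and 6.95 ± 0.24 in sons), Fgb (8.51 ± 0.22 and 6.69 ± 0.22) and F2, prothrombin (8.29 ± 0.32 and 6.83 ± 0.18). The gWAT members included F3, the tissue factor (-3.32 ± 0.38 and, short of the bound with TMM, -2.44 ± 0.30), F13a1, the A chain of factor XIII that macrophages make (-8.12 ± 0.28 and -6.99 ± 0.44), the endothelial receptors Thbd (-5.36 ± 0.27 and -5.23 ± 0.37) and Procr (-3.68 ± 0.32 and -3.48 ± 0.47), and Plat and Tfpi. F13a1 and its partner F13b were thus split between the tissues: F13b was at 299 CPM in the sons' liver and 3.14 CPM in their gWAT, and in daughters it was listed only in the liver table, at 282 ± 12.6 CPM (n = 5).

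Complement genes were also called in both directions. Of 28 genes tested in daughters 15 were higher in liver and 6 in gWAT (16 and 2 with TMM), with a median difference of 1.94. Of 29 in sons the counts were 15 and 6 (17 and 3 with TMM), with a median of 2.02. Of all genes tested, 8.12% were higher in liver and 21.3% in gWAT in daughters, and 7.9% and 23.7% in sons. The gWAT counts of complement are near these shares, so nothing is read from them. C3, the central component, was higher in liver by 1.80 ± 0.16 and 2.22 ± 0.30, and Hc by 7.04 ± 0.25 and 6.41 ± 0.26. Cfd, which encodes factor D, the protease that starts the alternative pathway, was at 2.43, 24.4, 2.46, 7.92 and 5.18 CPM in the daughters' livers and 36723, 11413, 16844, 11214 and 17116 CPM in gWAT. No liver library came near any gWAT library. C1qa, C1qb and C1qc, the 3 chains of C1q made by macrophages, were higher in gWAT (-2.74 ± 0.26, -1.64 ± 0.21 and -1.73 ± 0.20 in daughters, and -2.91 ± 0.31, -2.16 ± 0.31 and -1.79 ± 0.30 in sons), though with TMM only C1qa was called, and C1qc in sons was not called without gWAT library 2 (adjusted p = 0.095). C1ra and C1s1, the proteases of the same complex, were called in neither tissue in either sex (0.30 ± 0.15 and 0.08 ± 0.16 in daughters), although C1ra was called in sons with TMM. C4bp and Clu, regulators of complement, were at 694 and 1852 CPM in the sons' gWAT library with epididymal transcripts and at no more than 9.12 and 106 CPM in the other three. Clu was not called in sons (2.08 ± 0.72), against 3.93 ± 0.15 in daughters.

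Apolipoproteins and their partners were mostly genes of liver, with 17 of 26 tested higher there and 2 in gWAT in daughters (median 4.31), and 16 and 2 of 27 in sons (median 4.30; 18 and 2 with TMM). Apoa1 averaged 2796 ± 517 CPM (SD, n = 5) in the daughters' liver and 6.12 ± 4.29 CPM in gWAT. Apoe, which fat cells and macrophages also make, differed less, by 3.33 ± 0.18 in daughters and 2.80 ± 0.21 in sons. The 2 genes higher in gWAT in both sexes were those that take lipid up at the tissue: Lpl (-7.84 ± 0.22 and -7.52 ± 0.36) and Vldlr, the very-low-density lipoprotein receptor (-3.13 ± 0.39 and -5.25 ± 0.40). Lpl lay between 38.4 and 80.2 CPM in the daughters' livers and between 9063 and 18443 CPM in gWAT. Among the adipokines, 8 of 13 tested were higher in gWAT and 2 in liver in daughters, and 6 and 1 of 12 in sons (8 and 3, and 5 and 3, with TMM). The genes on the liver side were Rbp4, the retinol carrier (2.30 ± 0.17 and 3.19 ± 0.28), in both sexes and Agt, angiotensinogen (3.26 ± 0.40), in daughters. Retn, which encodes resistin, averaged 0.297 CPM in the daughters' liver and 568 CPM in gWAT, a difference of -8.81 ± 0.22.

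The tissue-restricted products were not wholly absent from the other tissue. Expressed as a share of the liver level, the 30 plasma protein and hepatocyte genes examined in daughters had a median of 0.351% in gWAT, and the 32 examined in sons 0.985%. By library this median ranged from 0.233% to 0.464% in daughters and from 0.655% to 1.19% in sons, so that the sons' gWAT lay above the daughters'. In both sexes 6 genes stood above 5%: Cp, Trf, Rbp4, Hp, Igf1 and Cyp2e1. In the reverse direction, the 12 adipocyte genes examined in daughters had a median of 0.320% of their gWAT level in liver. The 11 examined in sons had 0.558%. By library this median ranged from 0.178% to 0.419% in the daughters' livers and from 0.280% to 0.958% in the sons', and these ranges overlapped. Where the reads of either kind came from was not tested. Trf was at 934, 562, 866, 507 and 807 CPM in the daughters' gWAT against 11236 CPM or more in each of their livers. Cyp2e1, a P450 enzyme that metabolizes ethanol, was at 1058, 218, 450, 496 and 643 CPM in the daughters' gWAT and 1078, 1264, 1275, 1624 and 1164 CPM in their livers, and its difference was not past 2-fold in either sex (1.33 ± 0.29 and 1.38 ± 0.23), although it was with TMM. Hp, which encodes the haemoglobin scavenger haptoglobin, was at 667, 428, 585, 1035 and 574 CPM in the daughters' gWAT, below each of their livers (1992 to 2973 CPM), with a difference of 1.95 ± 0.20 (adjusted p = 0.00055). In sons Hp was at 757, 1897, 3377 and 5444 CPM in gWAT, across the liver range of 2648 to 3674 CPM, and the difference of 0.37 ± 0.42 was not called. The difference of these differences was 1.58 ± 0.48 (adjusted p = 0.056), which missed the threshold.

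**Figure D2:**
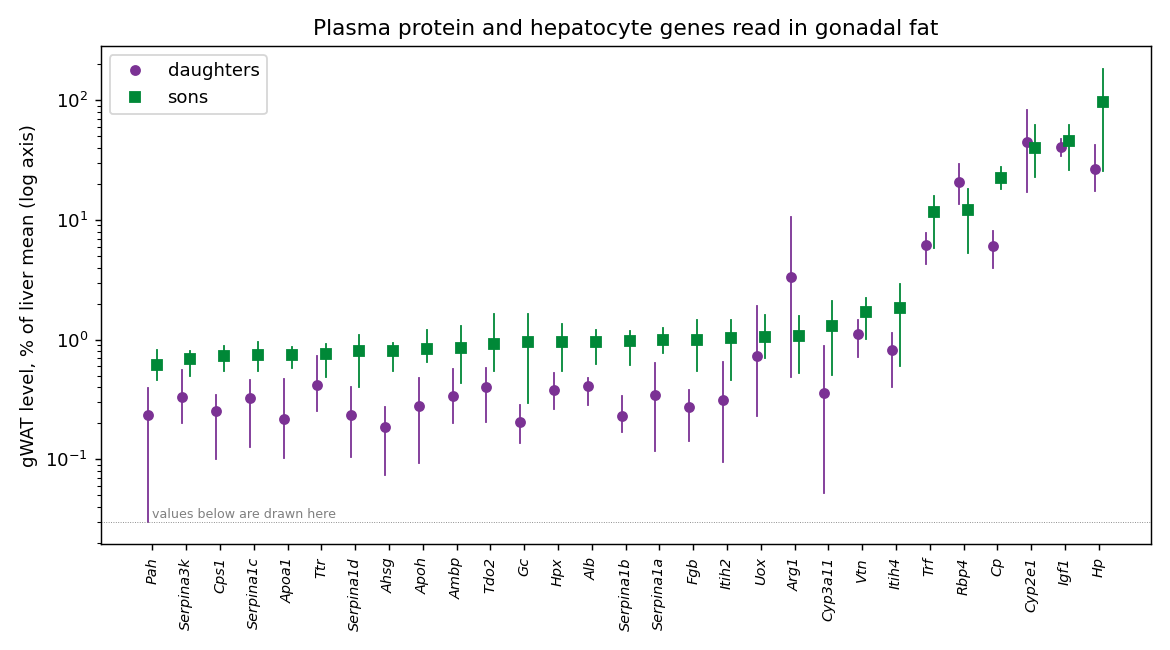
Level of plasma protein and hepatocyte genes in gWAT as a percentage of their mean level in liver (log axis), for daughters and sons; points are means over gWAT libraries, lines span the lowest to the highest library, and values under 0.03% are drawn at the dotted line. Most genes sit near the medians of 0.351% in daughters and 0.985% in sons, and Cp, Trf, Rbp4, Hp, Igf1 and Cyp2e1 stand above 5%.

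The paired isozymes and carriers gave the closest view of how the same step was encoded in each tissue. Of 68 members tested in daughters 22 were higher in liver and 21 in gWAT (23 and 18 with TMM), and of 71 in sons 24 and 21 (26 and 18 with TMM). The list had no common direction, and its median of -0.42 in daughters became 0.19 with TMM (0.34 and 1.08 in sons). Slc2a2, which encodes GLUT2, the bidirectional glucose transporter of hepatocytes, was at 386, 477, 487, 513 and 493 CPM in the daughters' livers and at 3.23 CPM or less in each gWAT library. Slc2a4, the insulin-regulated GLUT4, was at 200, 175, 275, 74.6 and 127 CPM in gWAT and at 1.95 CPM or less in each liver. The 2 transporters thus changed places, by 7.52 ± 0.30 (adjusted p = 2.1e-11) and -6.21 ± 0.30 (adjusted p = 2.9e-10), and in sons by 6.81 ± 0.24 and -6.08 ± 0.35. Hk2 and Hk1, hexokinases that phosphorylate glucose, were higher in gWAT (-5.43 ± 0.19 and -3.22 ± 0.28 in daughters).

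Glycogen genes were exchanged as well. Gys2, the liver glycogen synthase, was at 80.7, 122, 148, 95.1 and 89.0 CPM in the daughters' livers and 3.23, 7.37, 14.0, 5.16 and 3.39 CPM in gWAT, and Gys1, the muscle-type synthase, at 4.38 CPM or less against 31.0 to 95.9 CPM. The groups did not overlap for either gene, and the differences were 3.95 ± 0.30 and -4.75 ± 0.38 in daughters and 5.75 ± 0.24 and -5.06 ± 0.31 in sons. Among the phosphorylases, which break glycogen down, Pygb was higher in gWAT (-5.23 ± 0.27 and -5.46 ± 0.25), and Pygl was higher in liver in sons (1.66 ± 0.18) and short of the bound in daughters (1.39 ± 0.24). Fbp1, a gluconeogenic enzyme, differed by 8.15 ± 0.21 and 6.02 ± 0.18. Of the pyruvate kinases, Pkm was higher in gWAT (-4.27 ± 0.33 and -3.76 ± 0.46), and Pklr was tested only in sons and was higher in liver (4.55 ± 0.35). Ldhb was higher in gWAT (-4.37 ± 0.34 and -3.87 ± 0.38), whereas Ldha, the other lactate dehydrogenase subunit, was called in neither sex (-0.23 ± 0.19 and -0.12 ± 0.18).

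Pck1, phosphoenolpyruvate carboxykinase, serves gluconeogenesis in liver and glyceroneogenesis, the making of the glycerol backbone of triglyceride, in fat. It was at 3823, 4314, 3555, 2947 and 2998 CPM in the daughters' livers and 8716, 2686, 4694, 3423 and 4892 CPM in gWAT, and at 3595, 3491, 3656, 3426 and 2679 CPM in the sons' livers and 1720.0, 3866, 2889 and 1803 CPM in gWAT. The ranges overlapped in both sexes, and the differences were -0.37 ± 0.24 in daughters and 0.46 ± 0.23 in sons, and 0.25 and 1.21 with TMM, of which none was past 2-fold by the test. G6pc1, glucose-6-phosphatase, the last step of glucose release, was by contrast higher in liver by 7.55 ± 0.32 and 6.69 ± 0.38. In the whole list of glycolysis and gluconeogenesis, 5 of 23 genes tested were higher in liver and 8 in gWAT in daughters (6 and 6 with TMM), and 8 and 7 of 25 in sons (9 and 6 with TMM).

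The genes that bind and coat lipid formed pairs as well. Fabp1, the liver binding protein, was at 5803, 9672, 5271, 8250.3 and 8164 CPM in the daughters' livers and 22.0, 29.5, 22.1, 10.9 and 10.2 CPM in gWAT, and Fabp4 at 8.27 to 29.2 CPM against 9605 to 18630.0 CPM. The differences were 8.61 ± 0.26 and -9.94 ± 0.30, and neither gene's groups overlapped. Fabp5, another member of the family, was called in neither sex (0.28 ± 0.27 and 0.33 ± 0.28). Among the CIDE proteins, which control droplet size and lipoprotein lipidation, Cideb had 1692 reads over the daughters' livers and 1 read over their gWAT, and Cidec 11 reads against 10872. Plin1, the coat protein of the adipocyte droplet, had 4 reads in the daughters' livers and averaged 178 ± 63.8 CPM (n = 5) in gWAT, whereas Plin2, the coat protein of hepatocyte droplets, was higher in liver by 1.46 ± 0.15 in daughters (adjusted p = 0.016) and 1.90 ± 0.17 in sons. The daughters' call for Plin2 was at its limit without liver library 2 (adjusted p = 0.050). Elongases and desaturases were also divided: Elovl2 (8.07 ± 0.16 and 6.36 ± 0.44) and Elovl5 (2.59 ± 0.15 and 2.56 ± 0.18) were higher in liver, and Scd2 in gWAT (-4.79 ± 0.44 and -4.86 ± 0.43).

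**Figure D3:**
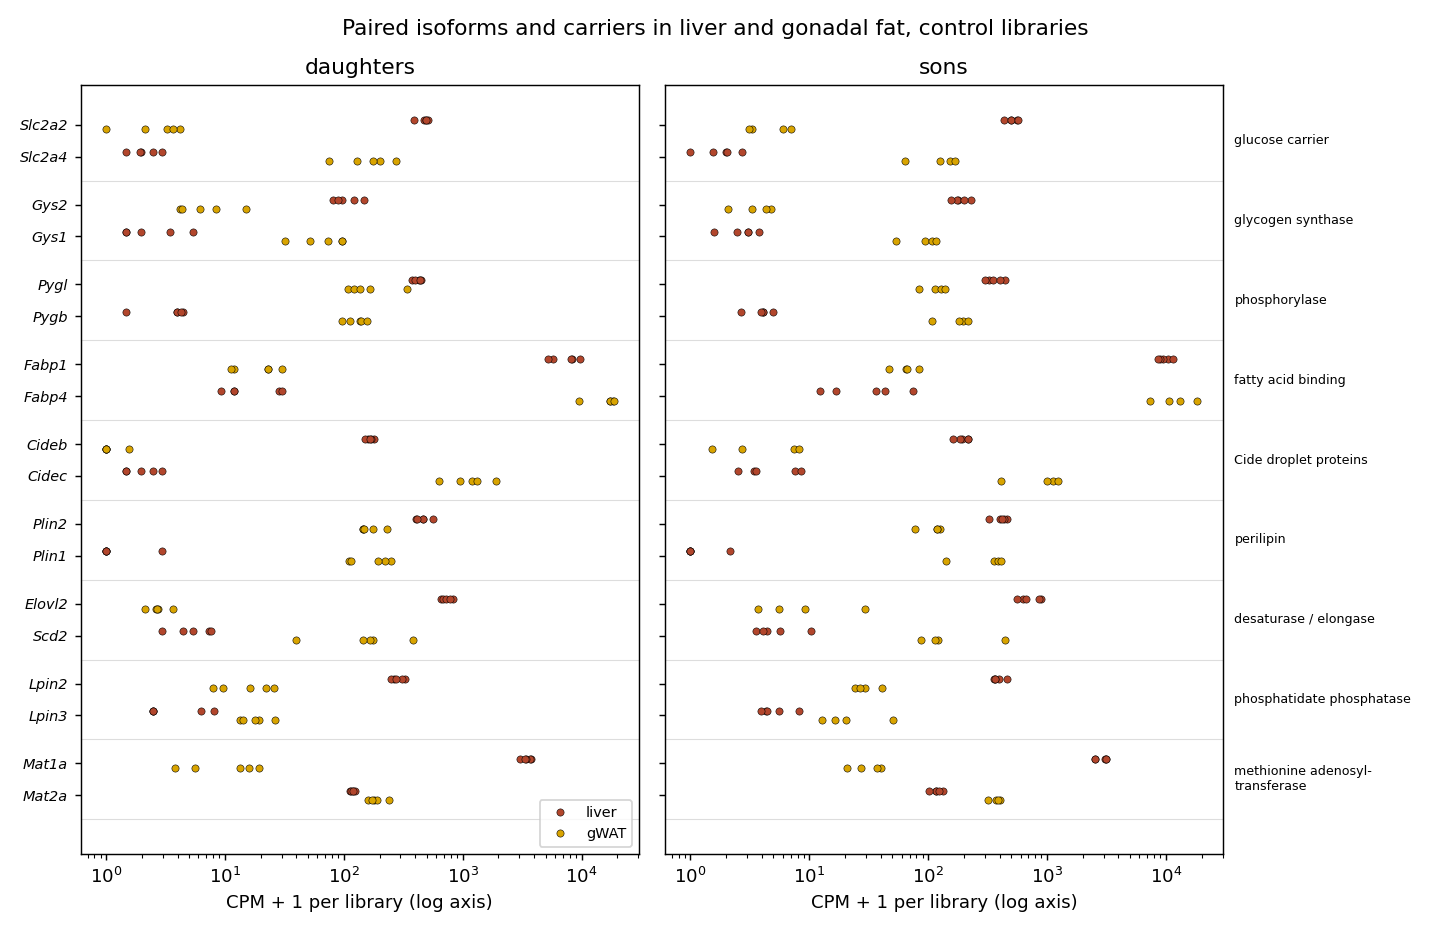
Level of 9 pairs of genes in each library (CPM + 1, log axis), the liver member beside the gWAT member, in daughters and sons. The pairs are isozymes or paralogues, except Elovl2 and Scd2, an elongase and a desaturase, which are different enzymes. Each point is 1 library, with liver and gWAT in separate colours. The 2 tissues change places within most pairs, such as Slc2a2 and Slc2a4 or Fabp1 and Fabp4, and lie close together for Plin2, Pygl and Mat2a.

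Genes of lipid storage and release were mostly higher in gWAT. Of 24 lipolysis and droplet genes tested in daughters 16 were higher in gWAT and 4 in liver (10 and 5 with TMM), with a median of -1.91, and of 26 in sons 15 and 4 (9 and 6 with TMM), with a median of -1.92. Pnpla2, adipose triglyceride lipase, averaged 28.7 ± 4.58 CPM in the daughters' liver and 713 ± 323 CPM in gWAT (SD, n = 5), and Lipe, hormone-sensitive lipase, 11.5 and 1022 CPM. Mgll and Abhd5, the lipase and the co-activator of the same pathway, differed less (-1.40 ± 0.17 and -2.09 ± 0.19 in daughters) and were not called with TMM, nor was Mgll without gWAT library 3 (adjusted p = 0.12). Adrb3, the adrenergic receptor of fat cells, was higher in gWAT (-5.38 ± 0.27 in daughters and -5.29 ± 0.29 in sons). The members higher in liver in both sexes were Plin2, Plin5, Cideb and Hsd17b13, which encode droplet proteins of hepatocytes. G0s2, the inhibitor of adipose triglyceride lipase, was not past 2-fold in either sex (0.82 ± 0.17 and 0.50 ± 0.32), although the daughters' value was with TMM.

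Genes of fatty acid and triglyceride synthesis were called in both directions. Of 23 genes tested in each sex, 5 were higher in liver and 4 in gWAT in daughters (5 and 2 with TMM) and 4 and 3 in sons (6 and 3 with TMM). Of all genes tested under CPM, 8.12% were higher in liver and 21.3% in gWAT in daughters, and 7.9% and 23.7% in sons. The gWAT counts under CPM are not above these shares, so nothing is read from them. Fasn, fatty acid synthase, was at 331, 414, 458, 301 and 355 CPM in the daughters' livers and 1644, 1592, 4094, 849 and 1807 CPM in gWAT. All gWAT values exceeded all liver values, and the difference of -2.25 ± 0.29 was called (adjusted p = 0.0015), but not with TMM (-1.64), and in sons it was -1.52 ± 0.33 and not called. Acly and Acaca, the 2 steps before it, were lower in liver without reaching the bound (-1.02 ± 0.47 and -1.72 ± 0.39 in daughters). The genes higher in liver made polyunsaturated fatty acids, namely Fads1 (3.47 ± 0.14 and 2.51 ± 0.24), Fads2 (3.98 ± 0.22 and 2.84 ± 0.45) and Elovl5, together with the sterol sensor Insig1, while Dgat1 (-3.74 ± 0.32 and -2.92 ± 0.27), which completes triglyceride, and Scd2 were higher in gWAT.

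Fatty acid oxidation and sterol synthesis were on the liver side. Of 26 oxidation genes tested in daughters 12 were higher in liver and none in gWAT (15 and none with TMM), and of 25 in sons 11 and none (19 and none with TMM). Cpt1a, which admits fatty acids to mitochondria, differed by 2.93 ± 0.16 and 2.81 ± 0.15, whereas Cpt2, Slc25a20 and Acadl were not past 2-fold (0.48 ± 0.18, 0.19 ± 0.14 and 0.16 ± 0.14 in daughters). Oxct1, which consumes ketone bodies, was not among the oxidation genes counted here, and it lay on the gWAT side. It was at 362, 389.7, 344, 368 and 577 CPM in gWAT and 10.7 to 18.2 CPM in the livers of the daughters (-4.86 ± 0.18). The tissues did not overlap, and the sons gave -4.64 ± 0.26.

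Of 24 cholesterol synthesis genes tested in daughters 19 were higher in liver and none in gWAT, with a median of 2.79, and of 23 in sons 15 and none, with a median of 2.26 (20 and 18 with TMM). Hmgcs1, the synthase early in the pathway, differed by 2.59 ± 0.21 in daughters and 1.46 ± 0.21 in sons, the latter not past 2-fold. Acat2 and Mvk were called in neither sex (0.39 ± 0.17 and 0.19 ± 0.29 in daughters). Srebf2, which encodes the transcription factor of the pathway, was called in neither sex (0.09 ± 0.23 and -0.92 ± 0.27). Bile acid synthesis and transport had 15 of 17 genes tested higher in liver in daughters (median 6.47) and 21 of 21 in sons (median 6.08), and none in gWAT (16 and 21 with TMM). Cyp7a1, which sets the rate of bile acid formation, was tested only in sons, at 418 ± 65.8 CPM in liver (SD, n = 5) and 1.96 ± 1.96 CPM in gWAT (n = 4). In daughters 6 of the 23 genes of the list, Cyp7a1 and Cyp8b1 among them, were listed only in the liver table.

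Genes of nitrogen metabolism were nearly all higher in liver. Of 28 genes of the urea cycle and amino acid catabolism tested in daughters 27 were higher in liver, with a median of 6.69, and of 32 in sons 31, with a median of 5.76, and none in gWAT. Cps1, the entry enzyme of the urea cycle, was at 2047, 1660.1, 2094, 1360.4 and 1426 CPM in the daughters' livers and at 5.93 CPM or less in each gWAT library (8.38 ± 0.22, adjusted p = 1.6e-13). Otc followed at 7.47 ± 0.27, Ass1 at 6.83 ± 0.24 and Asl at 4.00 ± 0.21. Gstz1, of tyrosine breakdown, was the single member called in neither sex (0.36 ± 0.17 and 0.57 ± 0.25). Mat1a, the liver methionine adenosyltransferase, was at 3457 CPM in the daughters' liver and 10.7 CPM in gWAT, whereas Mat2a, expressed in most tissues, was called only in sons (-0.66 ± 0.13 and -1.64 ± 0.13), and not there with TMM (-0.90).

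Breakdown of branched-chain amino acids, which fat also carries out, had few calls. Of 21 genes tested 2 were higher in liver and 2 in gWAT in daughters (3 and none with TMM), and 1 and 2 in sons (5 and 1 with TMM). Of all genes tested under CPM, 8.12% were higher in liver and 21.3% in gWAT in daughters, and 7.9% and 23.7% in sons. With so few calls, no balance between the tissues is read from these counts. The medians of -0.15 and -0.04 became 0.46 and 0.70 with TMM. Bcat2, the first transaminase, was higher in gWAT (-2.05 ± 0.29 and -2.62 ± 0.36, the former not with TMM), and Ppm1k, the phosphatase that activates the dehydrogenase complex, in liver (1.85 ± 0.15 and 1.82 ± 0.20). Bckdha, Bckdhb and Dbt, subunits of that complex, were called in neither sex (0.18 ± 0.21, -0.10 ± 0.18 and 0.91 ± 0.16 in daughters). Drug and steroid metabolism was again on the liver side, with 27 of 36 genes tested higher in liver and none in gWAT in daughters (median 6.01) and 32 and 2 of 41 in sons (median 5.79), with 30 and none, and 34 and 2, under TMM. The 2 gWAT genes in sons were Cyp1b1 and Fmo2. Cyp1a2 averaged 246 CPM in the daughters' liver and 588 CPM in the sons', against 0.891 and 2.90 CPM in gWAT.

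Among the 32 nuclear receptors tested in each sex, 4 were higher in liver and 4 in gWAT in daughters (9 and 4 with TMM), and 5 and 7 in sons (9 and 5 with TMM). Ppara, which drives fatty acid oxidation, was at 527, 733, 671, 666 and 638 CPM in the daughters' livers and 25.3, 37.4, 32.3, 6.31 and 9.61 CPM in gWAT (5.07 ± 0.36, adjusted p = 7.1e-08). Pparg, the master factor of adipocyte differentiation, was at 69.9, 47.1, 63.1, 43.6 and 57.1 CPM in gWAT and 3.30 CPM or less in each liver (-4.56 ± 0.27, adjusted p = 9.6e-09). The 2 paralogues changed places in sons too (4.54 ± 0.15 and -4.63 ± 0.38), while Ppard was called only in sons, and not with TMM (-1.56 ± 0.40 and -2.07 ± 0.36). Hnf4a, a factor of hepatocyte identity, differed by 6.05 ± 0.18 and 4.56 ± 0.30, Nr1h4, the bile acid receptor FXR, by 5.54 ± 0.26 and 5.30 ± 0.21, and Nr5a2, which regulates bile acid genes, by 5.21 ± 0.38 and 3.96 ± 0.26. Nr1i2, the xenobiotic receptor PXR, was tested only in sons (5.30 ± 0.28).

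Thra, the thyroid hormone receptor alpha, was higher in gWAT by similar amounts in both sexes (-3.22 ± 0.14 and -3.17 ± 0.22), whereas Thrb, the paralogue that predominates in liver, was short of the bound (0.83 ± 0.16 and 0.66 ± 0.21). Nr2f1 was higher in gWAT in both sexes (-2.61 ± 0.21 and -3.60 ± 0.37), and Nr4a1, Rarg and Ppard in sons only. Nr3c1, the glucocorticoid receptor (-0.27 ± 0.14 and -0.55 ± 0.18), Esr1, the oestrogen receptor alpha (-1.06 ± 0.21 and -1.43 ± 0.27), Nr1h3 (0.23 ± 0.26 and 0.52 ± 0.24), Rora (0.64 ± 0.15 and 0.48 ± 0.22) and Nr2f2 (-0.31 ± 0.23 and -0.65 ± 0.21) were called in neither sex. Rxra, the common partner of many of these receptors, was at 1.39 ± 0.17 and 1.39 ± 0.19, and was called in both sexes only with TMM.

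**Figure D4:**
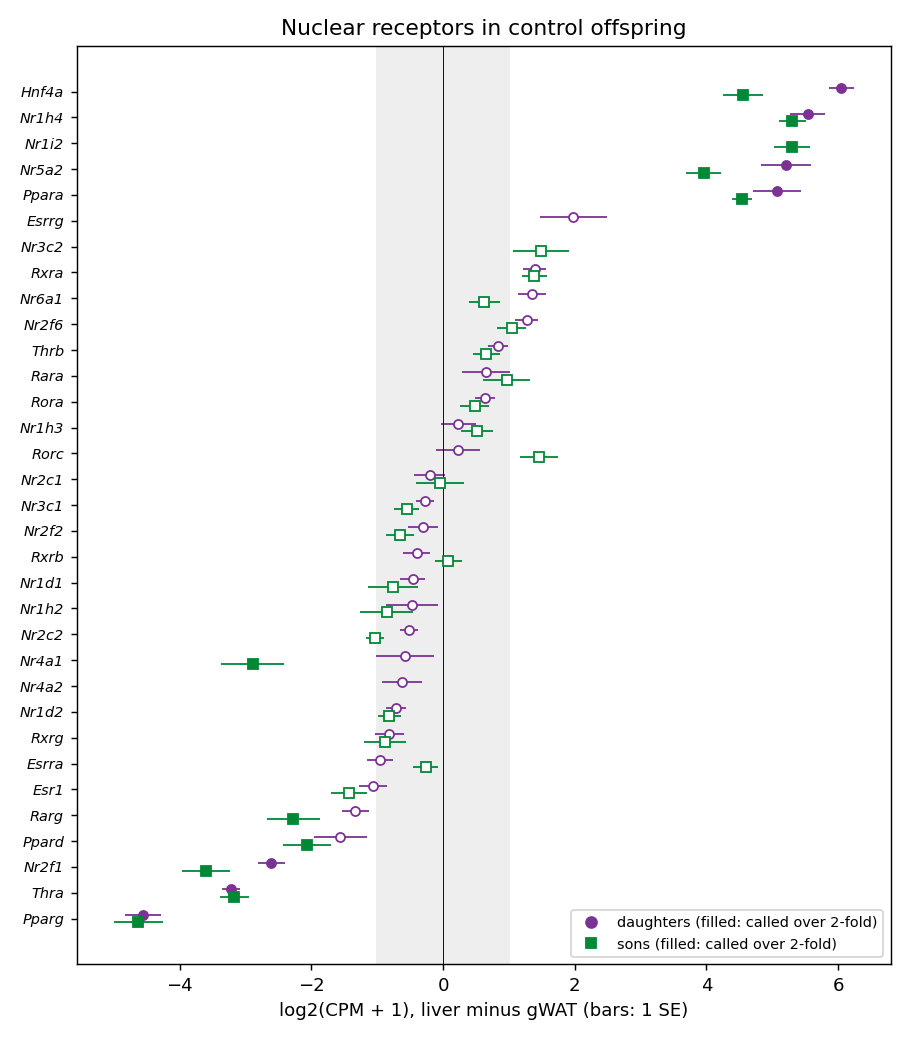
Log2 difference, liver minus gWAT, of nuclear receptors tested in daughters and sons, with bars of 1 SE; filled points are called against a 2-fold difference. Hnf4a, Nr1h4, Nr5a2 and Ppara stand to the liver side and Pparg, Thra and Nr2f1 to the gWAT side in both sexes, and most other receptors lie within 2-fold.

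Other transcription factors also separated the lineages. Of 18 hepatocyte factors tested in daughters 11 were higher in liver and none in gWAT, and of 19 in sons 12 and none (15 with TMM), and 8 more of the 26 in the list were listed only in the daughters' liver table. Onecut2 (7.33 ± 0.29 and 6.29 ± 0.29) was among the furthest apart, while Cebpa, which acts in both lineages, was higher in neither (-0.84 ± 0.20 and -0.50 ± 0.25). Foxa1 was not called in daughters (2.08 ± 0.84): gWAT library 2, which also held muscle transcripts, had 51.0 CPM, and the others 0.574 CPM or less. Of 17 adipocyte factors tested in daughters 9 were higher in gWAT and 1 in liver, and of 18 in sons 12 and 1 (8 and 10 in gWAT with TMM). Cebpd was higher in gWAT (-2.87 ± 0.29 and, short of the bound with TMM, -2.41 ± 0.29), and Cebpb was called in neither sex (0.16 ± 0.16 and 0.66 ± 0.16). The single liver gene of the adipocyte list was Klf15 (1.82 ± 0.17 and 1.73 ± 0.14).

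Genes of hormone reception were called in both directions. Of 25 genes of insulin, glucagon, catecholamine and growth factor reception tested in daughters 6 were higher in liver and 6 in gWAT (9 and 4 with TMM), and of 26 in sons 4 and 8 (9 and 4 with TMM). Of all genes tested, 8.12% were higher in liver and 21.3% in gWAT in daughters, and 7.9% and 23.7% in sons. Nothing is read from the gWAT counts, which are near these shares. Insr, the insulin receptor, was called in neither sex (0.69 ± 0.20 and 0.12 ± 0.20), and its substrate Irs1 was higher in gWAT (-1.65 ± 0.14 and -1.90 ± 0.25), though not with TMM, as was Irs2 in sons (-0.77 ± 0.15 in daughters and -1.84 ± 0.17 in sons). Gcgr, the glucagon receptor, averaged 92.2 CPM in the daughters' liver and 0.994 CPM in gWAT (5.57 ± 0.20, and 5.86 ± 0.33 in sons). Among 19 clock genes tested in daughters and 18 in sons, only Hlf was higher in liver (2.42 ± 0.20 and 1.59 ± 0.16) and only Bhlhe41 in gWAT (-2.28 ± 0.26 and -2.31 ± 0.23) in both sexes, with Usp2 higher in liver in sons (2.15 ± 0.19). With TMM 2 clock genes in daughters and 4 in sons were higher in liver, and 1 in gWAT in each. Clock, Per1, Per2 and Bmal1 were called in neither sex in which they were tested (-0.06 ± 0.16, -0.96 ± 0.23, 0.17 ± 0.25 and -0.41 ± 0.33 in daughters), and the labels give no time of collection.

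Cells other than hepatocytes and adipocytes showed in both tissues. Of 28 collagen and matrix genes tested in daughters 23 were higher in gWAT and 1 in liver, with a median of -4.28, and of 29 in sons 25 and 1 (22 and 3 with TMM), with a median of -4.33. Col1a1 averaged 14.5 CPM in the daughters' liver and 661 CPM in gWAT (-5.62 ± 0.43), Col1a2 27.3 and 834 CPM, and Col3a1 25.9 and 669 CPM. The single member higher in liver was Col18a1 (3.13 ± 0.20 and 2.27 ± 0.18), which encodes the collagen of endostatin. Progenitor and fibroblast markers were likewise on the gWAT side, with 10 of 13 tested in daughters and 12 of 14 in sons (9 in each with TMM), among them Pdgfra (-3.73 ± 0.21 and -4.34 ± 0.27) and Ly6a (-4.32 ± 0.23 and -4.64 ± 0.25). Dpp4, which marks fibroblast progenitors in fat and which hepatocytes express, was higher in liver in daughters (1.50 ± 0.14). The 7 stellate cell markers tested had 2 in each direction in both sexes: Colec11 (3.57 ± 0.22) and Reln (2.80 ± 0.30) in the daughters' liver, and Des (-5.66 ± 0.50) and Rgs5 (-2.31 ± 0.17) in gWAT. Des also encodes the intermediate filament of muscle. It was highest, at 490.1 CPM, in the daughters' gWAT library with muscle transcripts, and in sons its difference was -3.77 ± 0.35.

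Endothelium and macrophages differed by their specialized forms. Of 16 markers of vascular and adipose endothelium tested in daughters 10 were higher in gWAT, and of 17 in sons 10 (7 and 5 with TMM). None was higher in liver in either sex. The list holds genes of adipose endothelium beside general ones, and its member Cd36 is also among the adipocyte markers. Pecam1 differed by -1.49 ± 0.19 and -2.02 ± 0.33 and Cdh5 by -1.72 ± 0.21 and -2.02 ± 0.22, and Kdr was called in neither sex (-0.38 ± 0.24 and -0.85 ± 0.24). Neither Pecam1 nor Cdh5 was called with TMM, and Pecam1 was not called without gWAT library 1 in daughters (adjusted p = 0.084) or gWAT library 3 in sons (adjusted p = 0.062). Of 11 markers of liver sinusoidal endothelium tested in each sex, 4 were higher in liver and none in gWAT in daughters and 5 and 1 in sons (5 and none in each with TMM). Stab2, a scavenger receptor of these cells, was at 34.5 to 42.5 CPM in the daughters' livers and at 4.30 CPM or less in gWAT (4.41 ± 0.36). Of 20 macrophage markers tested in each sex, 10 were higher in gWAT and 1 in liver in daughters, and 11 and 1 in sons. With TMM the counts were 6 and 1 in daughters and 7 and 1 in sons. Csf1r (-1.63 ± 0.21 and -2.02 ± 0.28) and Lyz2 (-2.74 ± 0.26 and -3.28 ± 0.41) were among those higher in gWAT. Lpl stands both in this list and among the adipocyte markers. Csf1r was not called with TMM, nor in daughters without liver library 1 (adjusted p = 0.053). Kupffer cell markers ran the other way, with 4 of 9 tested higher in liver in daughters and 5 of 10 in sons: Vsig4 (3.69 ± 0.27 and 3.83 ± 0.28), Cd5l (5.12 ± 0.32 and 3.79 ± 0.33), and Clec4f in sons, at 23.6 CPM against 0.409 CPM (4.10 ± 0.31). The single gWAT call in that list in each sex was Cdh5, the general endothelial marker, which stands in both lists and was not called with TMM. Of 8 genes of MHC class II presentation 7 were higher in gWAT in daughters and 8 in sons (5 and 6 with TMM), H2-Aa at -3.79 ± 0.21 and -3.25 ± 0.32.

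Ribosomal proteins, often taken as constant, were lower in liver. None of the 75 cytosolic ribosomal protein genes was higher in liver, and 37 were higher in gWAT in each sex. Their medians of -1.45 and -1.44 were below the median gene (-0.60 and -0.73). With TMM the medians were -0.86 and -0.73, against -0.02 for the median gene in both sexes. In that scaling 17 and 10 of the 75 were called higher in gWAT, beside 1322 of 10529 and 1342 of 10631 of all genes tested. The sons' count is near that share, so nothing is read from it. Rps27a was the furthest apart in both sexes, at 115 to 168 CPM in the daughters' livers and 827 to 1884 CPM in gWAT (-3.06 ± 0.18, and -3.79 ± 0.24 in sons). Ribosomal protein genes have many processed copies, among which the authors' counting could split reads. Of 21 qPCR reference genes tested, 4 were higher in gWAT in each sex, a share below that of all genes tested (21.3% and 23.7%), and none in liver. They were Hprt1, Rpl13a, Rps18 and Tubb5 in daughters and Rpl13a, Rplp0, Rps18 and Tfrc in sons. With TMM the gWAT calls fell to none in daughters and Rpl13a alone in sons, and 1 gene in each sex was higher in liver. Actb, beta-actin, was at 845 to 1181 CPM in the daughters' livers and 1186 to 2683 CPM in gWAT, a difference of -1.05 ± 0.19 that did not exceed 2-fold. Gapdh (-0.35 ± 0.33 and 0.47 ± 0.28) and Sdha (-0.31 ± 0.14 and 0.08 ± 0.13) lay near 0 under CPM, where the median gene stood at -0.60 and -0.73, and with TMM the signs changed for Gapdh and Sdha in daughters.

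The medians of respiratory chain subunits depended on the scaling and the sex, at -0.62 in daughters and -0.19 in sons, and -0.01 and 0.56 with TMM. Of 49 tested in each sex none was higher in liver and 9 in gWAT in daughters (none and 2 with TMM), and 1 and 2 in sons (9 and none with TMM). Of all genes tested under CPM, 8.12% were higher in liver and 21.3% in gWAT in daughters, and 7.9% and 23.7% in sons. No CPM count of the subunits is above these shares, so nothing is read from those counts. Cox8a, the widely expressed isoform of cytochrome oxidase subunit VIII, was higher in gWAT (-3.04 ± 0.14 and -2.13 ± 0.29), but not with TMM in sons. The ADP/ATP carriers were split by isoform: Slc25a4 was at 11.3 to 24.8 CPM in the daughters' livers and 331 to 1626 CPM in gWAT (-4.89 ± 0.35, and -4.35 ± 0.22 in sons), the highest value being that of gWAT library 2, and Slc25a5 was higher in liver in sons (1.40 ± 0.16, and 0.81 ± 0.16 in daughters), though not without gWAT library 4 (adjusted p = 0.10). Of transcripts from the mitochondrial genome, 10 were tested in daughters and 9 in sons, and only ND2 was called, in sons (2.12 ± 0.20).

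The sons served as a second set of libraries, with no library shared with the daughters. Of 10043 genes tested in both sexes 8961 had the same sign. Of the 833 genes called higher in liver in daughters and tested in sons, 648 were also called in sons (77.8%), where 7.31% of all shared genes were called in that direction. These were 88.3% of the 734 called in sons. Of the 2101 genes called higher in gWAT in daughters, 1784 were called in sons (84.9%, against 23.1% of all shared genes), or 77.0% of the 2317 called there. This overlap is of CPM calls, in which both sexes share the lower median in liver. With TMM and median of ratios as well, 1322 of all 2246 gWAT calls held in daughters and 1342 of 2523 in sons, and every liver call held. Only Nt5e was called in opposite directions. Across genes, which are not independent replicates, the differences in the 2 sexes correlated with Pearson's r = 0.945 and Spearman's rho = 0.908. At the other end, 657 genes of 10043 stayed within 2-fold in both sexes with 2 SE to spare under CPM and TMM alike.

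The difference between liver and gWAT itself differed between daughters and sons for 561 of 10520 genes tested on the scale of genes present in all 4 tables (5.33%, limma interaction, Benjamini-Hochberg adjusted p below 0.05), with 408 above 0 (3.88%), that is, with liver minus gWAT larger in daughters, and 153 below 0 (1.45%). With TMM it was 256 and 242, so the excess of the first kind depended on the scaling. The sexes were also compared within each tissue under CPM (limma, adjusted p below 0.05). Of the 408 genes, a sex difference was called in gWAT only for 227, in liver only for 110, in both for 16 and in neither for 55. Of the 153 genes these counts were 68, 53, 16 and 16. A gene not called in a tissue was not shown to be alike in the sexes there.

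Known sex-dependent liver enzymes and carriers were among the single genes with the smallest p. Cyp2c69, a P450 enzyme of female liver, was at 3332, 1887, 1363, 1702 and 3215 CPM in the daughters' livers and 17.1, 12.3, 13.9, 29.3 and 14.7 CPM in the sons', while all gWAT libraries lay at 10.3 CPM or less, and the difference of differences was 7.46 ± 0.59 (adjusted p = 2.0e-08). Cyp2a4, a steroid hydroxylase of female liver, was at 380.3 to 704 CPM in the daughters' livers and 3.92 to 8.96 CPM in the sons', with 7.06 ± 0.50 (adjusted p = 1.0e-08), and Cyp2c37 followed with 3.25 ± 0.33. In the other direction Mup20, the urinary pheromone darcin, was at 9.86 to 43.1 CPM in the daughters' livers and 1910.3 to 3306 CPM in the sons' (-4.50 ± 0.44), with Mup21 at -5.13 ± 0.43 and Mup11 at -6.02 ± 0.65. Major urinary protein genes are near-identical copies, among which reads can be split. Elovl3, a fatty acid elongase, was at 0.943 to 1.96 CPM in the daughters' livers and 45.8 to 116 CPM in the sons' livers, and at 1.73 to 11.9 CPM and 0.540 to 1.16 CPM in gWAT (-6.86 ± 0.50). It was thus higher in gWAT than in liver in all but the lowest daughters' library, and higher in liver than in gWAT in sons. Cyp7b1, an oxysterol hydroxylase, reached -4.97 ± 0.62, Nudt7, a peroxisomal hydrolase of coenzyme A, -2.50 ± 0.25, and Ttc39c -2.29 ± 0.19, all with higher levels in the sons' livers. Gstp-ps, a copy of a glutathione transferase gene, was at -3.26 ± 0.32.

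Nt5e, which encodes CD73, the ectonucleotidase that makes adenosine, reversed between the sexes. It was at 131, 76.8, 98.1, 97.7 and 115 CPM in the daughters' livers against 7.56 to 21.9 CPM in gWAT, and at 4.13, 7.85, 5.97, 7.86 and 5.28 CPM in the sons' livers against 68.6, 31.3, 20.4 and 30.3 CPM in gWAT. The groups did not overlap in either sex, and the difference of differences was 5.11 ± 0.40 (adjusted p = 2.0e-08). The sons' own difference (-2.30 ± 0.31) was not past 2-fold with TMM (-1.61). Fmo2, a flavin monooxygenase, was called only in sons, toward gWAT (-2.48 ± 0.24, against 0.49 ± 0.19 in daughters), with an interaction of 2.97 ± 0.31. Prlr, the prolactin receptor, was at 416, 361, 319.7, 333 and 419 CPM in the daughters' livers and 40.2 to 61.0 CPM in gWAT, and at 38.3 to 66.8 CPM in the sons' livers and 33.8 to 114 CPM in gWAT. Its liver excess of 2.81 ± 0.14 in daughters was -0.04 ± 0.30 in sons, and the interaction was 2.84 ± 0.34 (adjusted p = 8.9e-06). Mt2, a metallothionein that binds zinc and copper, was at 4.66 ± 0.69. Btf3, Rps13-ps2 and Rpl27a-ps1, a translation factor gene and 2 ribosomal pseudogenes, were near 0 in the sons' livers alone (at most 1.12, 1.68 and 0.517 CPM) and at 10.3 CPM or more in every other library, with interactions of 4.69 ± 0.36, 4.49 ± 0.35 and 4.27 ± 0.36. Such genes have close copies elsewhere in the genome, among which reads can be split.

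**Figure D5:**
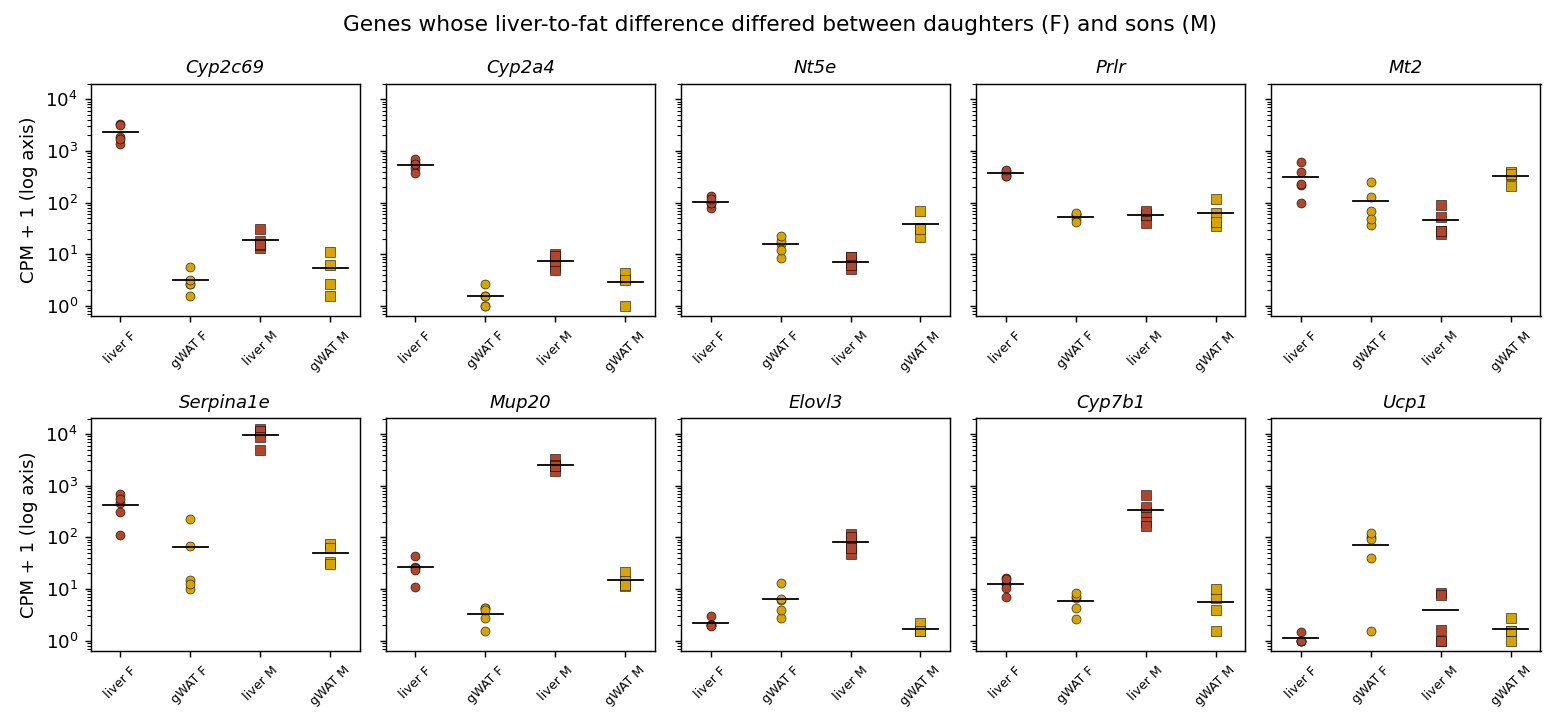
Level of 10 genes in each library (CPM + 1, log axis) in the livers and gWAT of daughters and sons; each point is 1 library. Cyp2c69, Cyp2a4, Nt5e and Prlr are high in the daughters' livers alone or reverse between the sexes, Mup20, Serpina1e, Elovl3 and Cyp7b1 are high in the sons' livers, and Ucp1 is present in 4 of the daughters' gWAT libraries.

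Beside the 5.33% of all genes called for the interaction, 11 of 18 male-biased and 8 of 10 female-biased liver genes were called, 18 of 31 plasma proteins, 11 of 24 coagulation genes, 11 of 36 drug metabolism genes and 11 of 49 respiratory subunits. Several lists had few or no calls, which at their size is near that share of all genes, so nothing is read from these counts: 0 of 11 fibroblast markers, 0 of 20 macrophage markers, 0 of 8 genes of MHC class II presentation and 0 of 17 adipocyte factors were called, and 1 of 31 nuclear receptors, Hnf4a (1.49 ± 0.35), which was not called with a pseudocount of 5 CPM (0.56). The complement genes called were C6 (-3.10 ± 0.43), C8a (-1.45 ± 0.31), Mbl2 (2.00 ± 0.36) and C7 (3.85 ± 0.60). Hamp2, a hepcidin, was at 586, 378, 1403, 508 and 501 CPM in the daughters' livers and 66.7, 40.4, 64.7, 88.0 and 116 CPM in the sons' (4.38 ± 0.61), and Cp, ceruloplasmin, was apart in gWAT, at 49.5 to 99.8 CPM in daughters and 168 to 252 CPM in sons (1.89 ± 0.24). Among the insulin and hormone genes, Akt2 (1.56 ± 0.34), Irs2 (1.08 ± 0.22) and Adrb1 (1.74 ± 0.48) were called beside Prlr, Adrb1 not with TMM or without the sons' gWAT library 3 (adjusted p = 0.084). Ucp1, the uncoupling protein of brown fat, was at 102, 91.6, 118, 38.6 and 0.567 CPM in the daughters' gWAT and at 1.75 CPM or less in the sons' (-5.76 ± 1.27).

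Part of the excess above 0 lay in genes of liver identity whose low gWAT level differed between the sexes. Of 206 genes at least 32-fold higher in liver in both sexes, chosen by these same levels, 74 were called above 0 and 4 below under CPM. Of all genes tested, 3.88% were called above 0 and 1.45% below. The median interaction of the 206 genes was 0.91. Their median female minus male difference was -1.11 in gWAT and -0.08 in liver. The share of the liver level found in gWAT, 0.351% in daughters and 0.985% in sons, is a ratio from the same libraries and so gives no separate evidence. Whether the gWAT reads of these genes came from gWAT cells was not tested. Apoa1 was an example, at 2.88 to 13.1 CPM in the daughters' gWAT and 18.4 to 28.7 CPM in the sons', with similar liver levels (interaction 1.76 ± 0.37).

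Genes listed in only 1 tissue's table could not be tested, and are given by their level over all genes of that table. There were 1036 such genes in the daughters' liver table (1.27% of its control reads) and 3395 in their gWAT table (1.89%), and 825 (0.418%) and 4458 (3.14%) in sons. In the daughters' liver the 8 most abundant were Cyp2b9 (328 ± 48.5 CPM, SD, n = 5), Ly6g2, F13b, Dpys, Cyp17a1 (235 ± 97.5), Proc, F9 and Slco1a4 (177 CPM), which encode P450 enzymes, clotting proteins and a bile salt transporter among others. In the sons' liver they included Hsd3b5 (166 ± 36.4), a male-biased steroid dehydrogenase, Serpina4-ps1, Cyp4a12b, Adh4, Serpina12, Serpina11 and Fabp2 (73.0 CPM). In the daughters' gWAT they were Sprr2f (656 ± 1014), Apcdd1 (308 ± 35.7), B3galt2, Pvalb (232 ± 506), Glb1l2, Lgals12 (177 ± 45.5), Nat8l and Prap1 (159 ± 255). Apcdd1 and Lgals12, a lectin of the adipocyte droplet, were even across libraries, whereas Sprr2f, Pvalb and Prap1, genes of epithelium, muscle and uterus, had an SD above their mean. In the sons' gWAT all 8 were genes of the epididymis, namely Teddm1a (1188 ± 2261, n = 4), Defb20, Pate6, Lcn9, Defb18, Defb41, Spag11a and Defb48 (404 CPM), and each had an SD above its mean. All 4 of these libraries carried epididymal markers, at the summed levels of 299 to 18911 CPM given above.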

How the data were processed

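RNA of liver and gonadal fat was read by 3′-tag sequencing, and the 19 control libraries were analysed here. Per the submitters' processing notes, the authors used cutadapt, STAR, DESeq2 and the mouse build mm10, with no versions, and 3′-tag libraries are named in the labels' protocols. The deposited values are DESeq2-normalized counts, a signal that the authors scaled within each of the 4 tables, so that levels of different tables cannot be compared as deposited. Every value was a whole multiple of the value of 1 read within 0.1 reads (100% of values in the library with the fewest), and the reads so recovered numbered 1726898 to 2152027 per library. No column of per-sample values was left unmapped (0). The authors' own log2 fold changes, standard errors (recorded as a score) and p-values in these deposited tables compare nicotine with DMSO, per the file headers, and were not used. How the authors counted strand and multiply mapped reads is not given in the sources used here.

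Reads were rescaled to CPM over genes present in both tables of a sex, so 1 read was worth 0.471 to 0.581 CPM. Genes with a mean of at least 5 CPM were tested as log2(CPM + 1) with limma 3.58.1 (R 4.3.3, mean-variance trend), against a 2-fold difference with treat and, for the interaction of tissue and sex, against 0, with Benjamini-Hochberg adjustment at 0.05 over all genes tested. Library-level values were compared with exact permutation tests (SciPy 1.17.1). The fits were tested on simulated counts with 4-fold changes, of which 52% were called in the daughters' comparison (10259 unchanged genes, 0 called), 42% in the sons' (10357 unchanged genes, 0 called) and 79.6% in the interaction (10231 unchanged genes, 6 called). Of 8-fold changes 100%, 92% and 94% were called. Fewer genes were changed in these simulations than were called in the data, so these shares need not hold for the data. The alternatives were other scalings (TMM, median of ratios, quantile), pseudocounts, filters, library weights, edgeR 4.0.16 and DESeq2 1.42.0 on recovered reads, and leaving out each library.

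Same-numbered liver and gWAT libraries of daughters were not treated as pairs, since the labels name no shared animal. The members and gene lists were chosen with earlier results of these data known. Genes named are the 10 largest differences per tissue and sex at 100 CPM or more, the 10 most abundant per tissue, up to 4 leading members of each list and up to 4 called against its majority, all isozymes, nuclear receptors and reference genes as needed, the 8 smallest interaction p-values each way with any list member called, and the 8 most abundant genes of 1 table only. Some genes that fall under these rules are not reported here. Chosen outside that rule after their values were seen were Igf1, Hp, Plat, Tfpi, C1ra, C1s1, C4bp, Clu, Apoe, Cyp2e1, G0s2, Fads1, Fads2, Insig1, Srebf2, Gstz1, Hlf, Ly6a, Colec11, Rps27a, Slc25a4, Mt2 and the iron handling and erythroid genes.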

Additional observations from a re-analysis of the deposited data

Results flagged for a closer look

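Chance sets apart about 1 library in 20 sets by the gap measure used here, and 15 of 96 sets examined had such a library. Among library totals, the share of reads in the 10 most abundant genes was highest at 32.4% in 1 daughters' liver library, and 1 sons' liver library needed 139 genes to hold 50% of its reads where the others needed 108 to 113. Markers of other tissues set several libraries apart. Epididymal and testis markers summed to 13.3 CPM in 1 sons' liver library and to 18911 CPM in 1 sons' gWAT library. Skeletal muscle markers summed to 145 CPM in 1 daughters' liver library, to 22013 CPM in 1 daughters' gWAT library and to 429 CPM in 1 sons' gWAT library. That daughters' gWAT library also had the lowest Fabp4 level, at 9605 CPM, where the other four lay between 17507 and 18630.0 CPM.

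Cfd was highest at 24.4 CPM in 1 daughters' liver library, at 36723 CPM in 1 daughters' gWAT library and at 107 CPM in 1 sons' liver library. Among the sons' livers 1 library was lowest for Pck1 (2679 CPM), and 1 was highest for Hp (3674 CPM) and 1 for Hnf4a (147 CPM). Hnf4a reached 1.13 CPM in 1 daughters' gWAT library, which is 2 reads.

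The difference between liver and gWAT differed between daughters and sons (limma interaction, daughters minus sons) in the positive direction for Cyp2a4 (7.06), Cyp2c69 (7.46), Nt5e (5.11), Btf3 (4.69), Rps13-ps2 (4.49), Rpl27a-ps1 (4.27), Cyp2c37 (3.25) and Fmo2 (2.97). It differed in the negative direction for Elovl3 (-6.86), Mup11 (-6.02), Mup21 (-5.13), Cyp7b1 (-4.97), Mup20 (-4.50), Gstp-ps (-3.26), Nudt7 (-2.50) and Ttc39c (-2.29). The adjusted p of each was 2.0e-05 or less, and each remained called when any 1 library was left out.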

How the results depend on the processing

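The counts of genes over 2-fold and of any difference stayed within 1.5 times their main value under the alternatives run, except where a stricter filter (mean of 25 CPM or more, fewer genes tested) gave 1889 and 4135 genes in daughters and 1960.0 and 4230.0 in sons. The interaction gave 855 genes with library weights and 41 when tested against a 2-fold difference of differences, an alternative chosen after seeing the data, as was leaving out the libraries that stood apart (617 genes for the interaction). Leaving out 1 library at a time gave 2908 to 3091 genes over 2-fold and 7165 to 7433 with any difference in daughters, 3038 to 3408 and 7142 to 7507 in sons, and 422 to 689 for the interaction. On recovered reads edgeR called 3853 genes over 2-fold in daughters, 4200.0 in sons and 555 for the interaction, and DESeq2 called 3061, 3283 and 760.0. Of the calls over 2-fold reported, 3094 in daughters and 3353 in sons were shared with edgeR. Scaling set the balance of the directions, as given with the counts. With the replicate number as a block, the daughters' counts were 3104 and 7408. Same-numbered libraries correlated between -0.084 and 0.069, which cannot show whether they came from the same mouse, since 2 tissues of a mouse need not vary together. The pairing was not used because the labels name no shared animal. No paired analysis was possible because the sons' gWAT table holds 4 numbered control columns for 5 labelled samples, for the sons and for the interaction. Depth limits low genes, since 1 read was worth about 0.5 CPM. A 2-fold change was not called in simulated libraries against the 2-fold bound. That follows from the bound itself, so it measures no limit of depth.

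Of the differences given for single genes, none that was called changed sign, and those near 0 did so as follows, with TMM and median of ratios. In daughters Ldha became 0.38 and 0.37, Pck1 0.25 and 0.23, Bckdhb 0.50 and 0.48, Nr3c1 0.33 and 0.32, Nr2f2 0.30 and 0.28, Clock 0.55 and 0.53, Bmal1 0.13 and 0.12, Kdr 0.23 and 0.21, Gapdh 0.25 and 0.23, Fth1 0.25 and 0.24, and Sdha 0.31 and 0.29. In sons Ldha became 0.63 and 0.57, Nr3c1 0.19 and 0.13, Nr2f2 0.093 and 0.030, Cebpa 0.24 and 0.18, and Prlr 0.70 and 0.64. Leaving out 1 library gave ranges across 0 for C1s1 (down to -0.048), Srebf2 (down to -0.027), Bckdhb (-0.21 to 0.057), Nr1h3 (down to -0.068), Clock (-0.12 to 0.076) and Gapdh (-0.60 to 0.024) in daughters, and for Hp (-0.16 to 0.79), Insr (down to -0.094) and Prlr (-0.27 to 0.31) in sons. List medians changed sign with TMM and median of ratios for 7 and 6 of 42 lists in daughters and 7 and 7 of 43 in sons. In daughters these were nuclear receptors (0.24 and 0.22), isozymes (0.19 and 0.18), glycolysis (0.25 and 0.23), branched-chain amino acid breakdown (0.46 and 0.44), mitochondrially encoded genes (0.42 and 0.41), sex-linked genes (0.37 and 0.35) and, with TMM alone, reference genes (0.0021). In sons they were nuclear receptors (0.54 and 0.48), branched-chain amino acid breakdown (0.70 and 0.64), respiratory subunits (0.56 and 0.49), stellate cell markers (0.42 and 0.36), clock genes (0.48 and 0.42), female-biased liver genes (0.50 and 0.45) and sex-linked genes (0.43 and 0.37).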

Other observations

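Genes of iron handling were higher in liver more often than in gWAT in both sexes. Of 18 genes tested from a list of 19, 9 were called over 2-fold higher in liver in daughters and 9 in sons (8.12% and 7.90% of all genes tested), with 9 and 9 under TMM, and the median difference of the list was 1.23 and 1.20 on the log2(CPM + 1) scale. The genes higher in liver included Hamp, which encodes hepcidin, the hormone that limits iron export into plasma. Hamp was at 458, 441, 669, 285 and 275 CPM in the daughters' livers and at 4.30, 3.40, 0, 0 and 0.565 CPM in their gWAT (7.62 ± 0.43 SE, adjusted p = 1.5e-09 against 2-fold, limma), and liver and gWAT did not overlap in sons either (5.82 ± 0.24). Tfr2, the receptor by which hepatocytes sense iron-loaded transferrin, was at 115 to 140.15 CPM in the daughters' livers and at 2.15 CPM or less in their gWAT (6.34 ± 0.29), and the sons gave 5.95 ± 0.24. Slc40a1, the iron exporter ferroportin, was closer between the tissues, at 90.6 to 132 CPM in liver and 10.8 to 55.1 CPM in gWAT in daughters (2.15 ± 0.34) and with 2.95 ± 0.30 in sons.

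Ferritin subunits were not called in either sex. Fth1, the heavy chain, was at 778 to 979 CPM in the daughters' livers and 904 to 1421 CPM in their gWAT (-0.36 ± 0.13), and Ftl1, the light chain, at 237 to 289.7 and 155 to 241 CPM (0.41 ± 0.13), so the tissues overlapped for both. The genes called higher in gWAT were Steap4, a metalloreductase, in daughters (-1.87 ± 0.24) and Tfrc, the receptor for transferrin uptake (-1.75 ± 0.25), and Hmox1, which opens the haem ring (-1.97 ± 0.30), in sons. None of these 3 was called under TMM (adjusted p = 0.42, 1 and 0.55). Erythroid markers moved with gWAT in both sexes, with 4 of 6 tested genes called, all haemoglobin chains, against 21.3% and 23.7% of all genes tested, and 0 in daughters and 1 in sons under TMM. The summed level of the listed erythroid genes was 323 to 499 CPM in the daughters' livers and 925 to 3069 CPM in their gWAT, and 409 to 766 CPM and 1415 to 4225 CPM in sons. Its part in the gWAT values was not tested.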
